A study of Mus musculus with 35 samples.

Results

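A set of 10 genes that mark fat cells was followed in mouse skin after radiation: Adipoq, Lep, Plin1, Cidec, Fabp4, Cd36, Pparg, Lipe, Pnpla2 and Retn. They were chosen by name, and all 10 were found among the 36106 genes of the count table. Bulk RNA sequencing covered 35 pieces of skin of 19 female mice, aged 10 weeks at the start, of the inbred strain C57BL/6J. Radiated skin came from the left flank, which had received 25 Gy of radiation at 3.6 Gy per minute over 420 s and had then been shaved. It was sampled at weeks 1, 2, 3 and 4, with n = 4 at each week. Control skin, also n = 4 at each week, carried the same week and replicate numbers as radiated skin, and since 35 samples came from 19 mice the 2 samples of a number were taken to come from 1 mouse. On that reading control skin is unirradiated skin of radiated mice. Its body site is not stated. Sham skin came from 3 separate mice that received no radiation, at a time that is not stated. Whether control and sham skin was shaved is not stated either.

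White fat lies beneath the dermis of mouse skin and thickens and thins with the hair cycle. Its cells store triglyceride in 1 large droplet, coated by perilipin 1 (Plin1) and enlarged by Cidec. Fatty acids enter through Cd36 and are carried by Fabp4, and the stored fat is released by the lipases encoded by Pnpla2 and Lipe. Adipoq, Lep and Retn encode the secreted hormones adiponectin, leptin and resistin, and Pparg encodes the nuclear receptor that drives fat cell formation. Several of these genes are also used outside fat: Cd36 by endothelium, muscle and macrophages, Fabp4 by endothelium, and Pnpla2 by muscle. In RNA from whole skin, fewer fat cells and less RNA per fat cell cannot be told apart.

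Promoters of 9 of the 10 genes, 13 promoters in all, were matched in a RefSeq table for GRCm38.p6. The search covered both strands of the 300 bases from 250 before to 50 after each start. Lep and Retn, both of which encode hormones, are shown because Lep held the motif given here and Retn had the largest difference of the 10 genes at week 4. The 250 bases before each start are printed on the plus strand, 5′ to 3′, with capitals marking TTGCGCAA, a palindromic motif for C/EBP factors, which act with Pparg in fat cell formation.
Lep, chr6:29059971-29060220: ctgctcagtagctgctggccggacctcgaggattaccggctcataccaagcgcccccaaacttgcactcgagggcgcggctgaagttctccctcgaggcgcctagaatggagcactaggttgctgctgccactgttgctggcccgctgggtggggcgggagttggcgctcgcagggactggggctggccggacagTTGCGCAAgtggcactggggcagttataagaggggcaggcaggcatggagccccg
Retn, chr8:3655520-3655769: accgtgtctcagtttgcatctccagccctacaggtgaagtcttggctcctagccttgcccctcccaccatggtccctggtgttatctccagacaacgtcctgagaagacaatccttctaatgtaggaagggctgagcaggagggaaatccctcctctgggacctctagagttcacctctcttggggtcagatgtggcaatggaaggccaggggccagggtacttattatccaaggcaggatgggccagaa
TTGCGCAA lay 55 bases before the Lep start and was not found in the other promoters of these genes. It was found in 60 of all 32851 promoters of that length (0.183%). The motif AGGTCANAGGTCA, to which Pparg and its partner Rxra bind as a pair, was found in none of the 13 and in 0.0396% of all. Its single repeat AGGTCA, which the longer motif contains, was found in 1 Cd36 and 2 Pparg promoters and in 16.3% of all. The letters TATAAA were found in 1 Pparg promoter and in 13.6% of all. A match in these windows is a description of the letters and not a measured binding site.

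On GRCm38 the genes lie at chr16:23146536-23158028 (Adipoq), chr6:29060220-29073877 (Lep), chr7:79720218-79732903 (Plin1), chr6:113424634-113435760 (Cidec) and chr3:10204088-10208576 (Fabp4). The others lie at chr5:17781690-17888801 (Cd36), chr6:115360951-115490399 (Pparg), chr7:25379527-25398710 (Lipe), chr7:141455198-141460743 (Pnpla2) and chr8:3655770-3660110 (Retn). Every gene was detected in every sample, with the lowest count at 77 reads for Pparg. Levels are given as CPM, the share of a scaled library's counts that fell on a gene. The scaling evens out the libraries, whose totals ran from 17362853 to 28487885 counts. Skin markers of keratinocytes were present throughout, with the 6 listed genes summing to between 7123 and 30684 CPM. Divided by transcript length, Fabp4 had the highest mean level over all samples, at 149 CPM per kb. Pnpla2 (61.3), Plin1 (59.98) and Adipoq (51.9 CPM per kb) came next, followed by Cd36 at 37.6, Cidec at 19.3, Lep at 14.4, Retn at 12.7 and Lipe at 9.58. Pparg, the transcription factor, had the lowest level at 5.01 CPM per kb. For 2 genes the level may be less certain, since the span of an antisense gene overlaps theirs: Gm44079 overlaps Pparg and 4732471J01Rik overlaps Lipe. The strand setting of the counting is not stated, and whether the partners share transcript sequence was not examined. Reads of the partners may therefore not be told apart.

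Control skin of week 1 had the highest mean of the 9 groups for 9 of the 10 genes, and control skin of week 4 had it for Pparg. Sham skin had the lowest mean for 4 genes (Lep, Cidec, Pnpla2, Retn), radiated skin of week 3 for 3 (Adipoq, Plin1, Cd36), radiated skin of week 1 for 2 (Fabp4, Pparg) and control skin of week 3 for Lipe. Adipoq spanned 10.9-fold between its lowest sample, 19.5 CPM in radiated skin of week 3, and its highest, 213 CPM in control skin of week 1. Lep spanned 12.4-fold and Lipe 3.30-fold. Over the 35 samples the Spearman correlation between pairs of the genes had a median of 0.64, from 0.31 for Cd36 and Lipe to 0.92 for Adipoq and Plin1. These samples share groups and the scaling, so the values describe co-variation only.

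**Figure D1:**
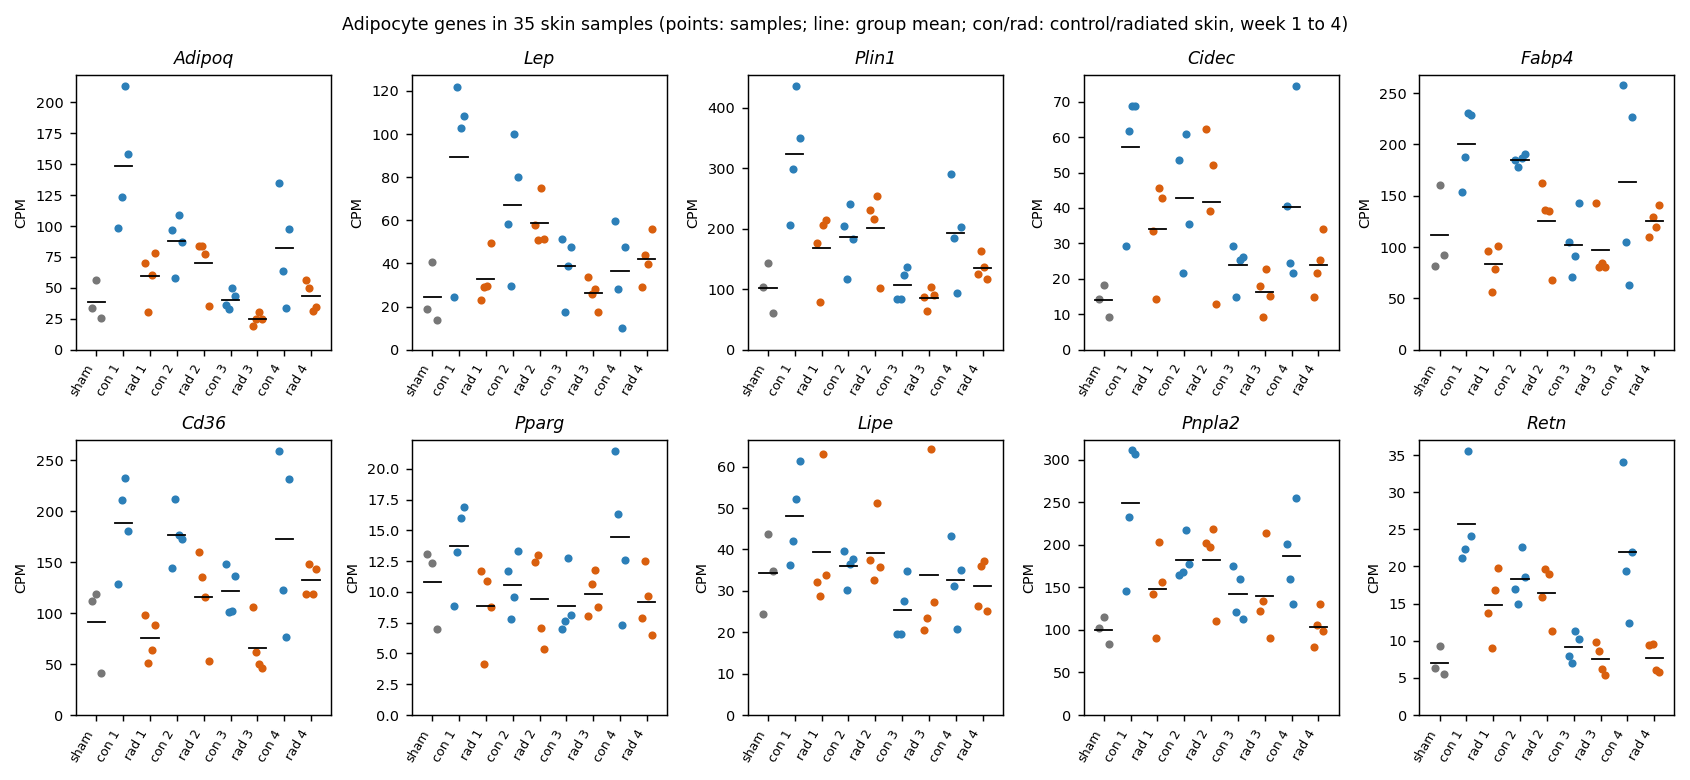
Level of each gene (CPM, linear axis from 0) in every sample, by group, with points for samples and a line at the group mean; con and rad are control and radiated skin and the digit is the week. Control skin of week 1 has the highest mean in 9 of the 10 panels, and in week 4 the Retn points of radiated skin all lie below those of control skin.

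One week after radiation all 10 genes were on average lower in radiated than in control skin, but none passed the test. Log2 fold changes ran from -1.44 for Lep to -0.28 for Lipe, with a median of -0.86 beside 0.05 for all 17578 genes tested. Of all genes tested, 45.1% were below 0. A gene was counted as changed at an adjusted p under 0.05 by edgeR's quasi-likelihood test with Benjamini-Hochberg adjustment over all genes tested, and 0% of genes passed in that week. Of the 10 genes, 7 had an unadjusted p under 0.05, as did 2477 of all genes, and DESeq2 called 4 (Adipoq, Lep, Fabp4 and Cd36), as it did 423 of all genes. Plin1 (-0.93), Retn (-0.79), Cidec (-0.74), Pnpla2 (-0.74) and Pparg (-0.62) lay between the ends of that range. In the 4 pairs of samples taken to be from 1 mouse, 37 of 40 differences were lower in radiated skin, and 7 of the 10 genes were lower in all 4 pairs, as were 13% of all genes tested.

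In week 1 the fatty acid handling genes Fabp4 and Cd36 had the largest differences relative to their standard errors. Fabp4 had 96.2, 56.6, 78.6 and 101 CPM in radiated skin of week 1 and 154, 188, 231 and 228 CPM in control skin. Cd36 had 97.9, 50.8, 63.9 and 88.5 CPM in radiated skin and 128, 211, 233 and 181 CPM in control skin. For both genes each radiated sample lay below each control sample. The log2 fold changes were -1.26 ± 0.20 (SE, n = 4 and 4) for Fabp4 and -1.32 ± 0.24 for Cd36, with an adjusted p of 0.171 for each in edgeR. Without radiated sample 1 of week 1, both passed (adjusted p = 0.0218 and 0.0221 in edgeR), and the number of all genes that passed went from 0 to 232. Adipoq showed the same separation at 59.98 ± 20.70 against 149 ± 49 CPM (SD, n = 4 each), with a log2 fold change of -1.30 ± 0.30 and an edgeR adjusted p of 0.190. With Retn, 4 of the 10 genes had groups that did not overlap. The share of all genes without overlap in week 1 was not computed, so the separation is a description only.

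Markers of other cells differed in week 1 as well, though none of them passed. All 7 skeletal muscle markers were below 0, with a median log2 fold change of -1.33, as were all 7 endothelial markers, with a median of -0.43. The 7 skeletal muscle markers summed to 11456 ± 6087 CPM in radiated samples and 28894 ± 6679 CPM in control samples (SD, n = 4 each), with ranges of 7067 to 20302 and 23310 to 36869 CPM. The 7 endothelial markers summed to 179 ± 43 and 242 ± 29 CPM, with overlapping ranges of 116 to 211 and 205 to 276 CPM. None of the 7 and 7 markers was at 0 in any of these samples. Of 6 growing hair follicle markers 5 were tested, and all 5 were below 0, with a median of -5.57. Their sums overlapped, at 16.6 to 115 CPM in radiated and 17.7 to 6685 CPM in control samples. The 7 macrophage markers (median 0.48) and the 6 keratinocyte markers (median 0.67) were all above 0. The part of muscle and endothelium in the differences of Cd36, Fabp4 and Pnpla2, and that of the hair cycle in those of all 10 genes, was not tested.

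In week 2 the difference was small for most of the genes. Of the 10, 8 were below 0, with a median log2 fold change of -0.16 beside 0.00 for all genes, of which 50.4% were below 0. None passed in edgeR, where 0.00577% of genes did, and none in DESeq2, which called 734 of all genes. Fabp4 alone had an unadjusted p under 0.05, as did 2388 of all genes, with 125 ± 40 CPM in radiated samples and 185 ± 5 CPM in control samples (SD, n = 4 each) and a log2 fold change of -0.57 ± 0.23 (SE). It was also the only one lower in all 4 pairs, as were 13.5% of all genes. Plin1, the droplet coat protein, had 201 ± 67 and 187 ± 52 CPM and a log2 fold change of 0.10, with an interval of -0.48 to 0.68 (2 SE either side). The values for the other genes were -0.61 for Cd36, -0.34 for Adipoq, -0.19 for Lep, -0.17 for Pparg, -0.16 for Retn, -0.05 for Cidec, -0.01 for Pnpla2 and 0.12 for Lipe. The skeletal muscle markers summed to between 8635 and 17851 CPM in radiated and between 25366 and 45468 CPM in control skin of that week. All 7 endothelial markers (median -0.29) and all 5 tested growing hair follicle markers (median -5.25) were below 0. All 7 macrophage markers were above 0 (median 1.91). None of these markers passed, and the part of these cells was not tested.

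In week 3 Adipoq and Cd36 were called lower in edgeR. They were 2 of the 10 genes, beside 27.2% of all genes tested passing and 13.6% passing with lower values. The count of 2 was thus below the share of all genes passing and near that passing with lower values. Adiponectin RNA (Adipoq) stood at 19.5, 24.9, 30.3 and 24.9 CPM in radiated skin of week 3 and at 36.0, 32.9, 49.8 and 43.3 CPM in control skin. The groups did not overlap, and the difference was -0.67 ± 0.19 on the log2 scale (SE), for which edgeR gave an adjusted p of 0.0255. Cd36, the fatty acid transporter, had 106, 62.2, 50.5 and 45.7 CPM in radiated and 149, 101, 102 and 137 CPM in control skin. Its groups overlapped through radiated sample 1, and the difference was -0.86 ± 0.27 on the log2 scale (SE), for which edgeR gave an adjusted p of 0.0419. These calls depended on the scaling and on single libraries. Scaling by total counts moved the median of all genes in week 3 by 0.24 on the log2 scale and ended both calls (adjusted p = 0.106 and 0.107 in edgeR). Leaving out control 3 or 4 or radiated 1 or 2 ended the Adipoq call (adjusted p between 0.0558 and 0.0669), as did 1 fit of all 35 samples (0.115). Leaving out any library but radiated 1 ended the Cd36 call (adjusted p between 0.0513 and 0.106). The skeletal muscle markers also fell in that week, 6 of 7 passing with lower values and a median log2 fold change of -2.40. They summed to between 2568 and 7588 CPM in radiated and between 14946 and 30250 CPM in control skin, without overlap. Endothelial and macrophage markers went the other way: 3 of 7 and 4 of 7 passed, all higher, with medians of 0.92 and 1.43. The part of muscle, endothelium and macrophages in the Cd36 difference was not tested.

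The remaining genes gave no call in week 3. Their log2 fold changes ran from -0.53 for Lep to 0.45 for Lipe, with Cidec at -0.53, Plin1 at -0.28, Retn at -0.25, Fabp4 at -0.05, Pnpla2 at 0.01 and Pparg at 0.17. Over the 10 genes 7 were below 0, beside 45.2% of all genes, and the median was -0.27 beside 0.08 for all genes. Adipoq, Cidec and Cd36 were lower in all 4 pairs, 3 of the 10, beside 23.4% of all genes. Lipe, the hormone-sensitive lipase, had 20.5, 23.4, 64.3 and 27.3 CPM in radiated and 19.5, 19.5, 27.6 and 34.8 CPM in control skin, so its higher mean rested on radiated sample 3.

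Week 4 brought the firmest difference, in resistin (Retn) and in adipose triglyceride lipase (Pnpla2), which starts the breakdown of stored fat. Both fell, 2 of the 10 genes, beside 48.4% of all genes passing and 24.2% passing with lower values, so the count of 2 was not above the background. Retn stood at 9.48, 9.54, 6.03 and 5.76 CPM in radiated skin of week 4 and at 34.0, 19.3, 12.4 and 22.0 CPM in control skin. The groups did not overlap. Retn was 2.83-fold lower, which is -1.50 ± 0.30 (SE) on the log2 scale, with an edgeR adjusted p of 0.00272. The 4 pairs all had lower values in radiated skin, from -1.91 to -1.01 on that scale. Pnpla2 had 79.4, 106, 130 and 99.2 CPM in radiated and 201, 160, 130 and 255 CPM in control skin. Its groups met without overlap at 130 CPM, and it was 1.80-fold lower, which is -0.85 ± 0.21 (SE) on the log2 scale, with an edgeR adjusted p of 0.00903. Retn and Pnpla2 were called under each of the 14 alternative settings, which included leaving out each library.

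Markers of muscle and of the hair follicle differed in week 4 too. Of 7 skeletal muscle markers 5 passed, all lower, with a median log2 fold change of -2.28. Of 6 growing hair follicle markers 5 were tested, and all 5 rose, with a median of 7.83. Their sums overlapped all the same, at 19.0 to 5806 CPM in radiated and 20.8 to 32.5 CPM in control skin. The part of muscle in the Pnpla2 difference, and that of the hair cycle in the differences of the fat cell genes, was not tested.

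Adipoq stood at 56.6, 50.05, 31.6 and 34.5 CPM in radiated skin of week 4 and at 135, 64.0, 33.5 and 97.6 CPM in control skin. The log2 fold change of -0.93 ± 0.38 (SE) did not pass (adjusted p = 0.0660 in edgeR), while with the mouse as a block it was -0.80 and passed (adjusted p = 0.0422 in edgeR). Adipoq passed in 4 of the 14 alternative settings. Control sample 3 held the lowest value of its group for each of the 10 genes. Without it 5 genes passed, with Adipoq at -1.19, Plin1 at -0.73 and Pparg at -0.87 on the log2 scale added to Retn and Pnpla2 (adjusted p between 0.00898 and 0.0227 in edgeR for the 3 added), and Lep turned to -0.10. Over the fits that left out 1 library, 7548 to 8582 of all genes passed, beside 8643 of 17850 (48.4%) with all libraries. With all libraries Plin1 stood at -0.50, Pparg at -0.65 and Cidec at -0.75, and none of these passed. All 10 genes together had 9 values below 0, beside 48.9% of all genes, and a median of -0.57 beside 0.02. Adipoq, Pnpla2 and Retn were lower in all 4 pairs, beside 28.9% of all genes.

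Leptin was the 1 gene of the 10 that lay above 0 in week 4, and its sign rested on control sample 3. Lep had 29.3, 44.0, 39.9 and 55.9 CPM in radiated and 59.5, 28.0, 9.87 and 47.8 CPM in control skin, and the groups overlapped over most of their range. Its log2 fold change was 0.22 with an interval of -0.67 to 1.11 (2 SE either side), and without control sample 3, whose 9.87 CPM was the lowest value, it was -0.10. Lipe likewise differed little, with 31.2 ± 6.3 and 32.6 ± 9.3 CPM (SD, n = 4 each) and an interval of -0.50 to 0.38 on the log2 scale. Fabp4 and Cd36, which had the largest differences relative to their errors in week 1, had log2 fold changes of -0.38 each in week 4, with intervals that included 0.

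**Figure D2:**
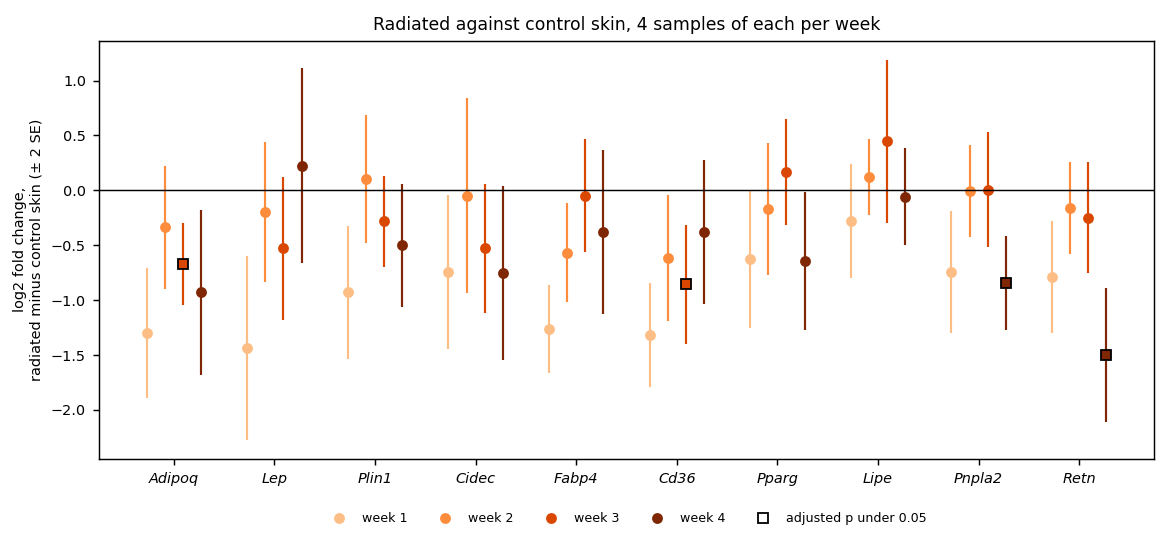
Log2 fold change of radiated against control skin for each gene at weeks 1 to 4 (points, from 4 samples of each), with bars of 2 SE either side and squares for an adjusted p under 0.05. The 4 squares are Adipoq and Cd36 in week 3 and Pnpla2 and Retn in week 4, and the 10 points of week 1 all lie below 0.

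A single model of the 32 samples of radiated and control skin tested if their difference changed from week to week. Retn alone passed (adjusted p = 0.0495 in edgeR), beside 15.6% of all genes. Its log2 fold changes from the first to the last week were -0.79, -0.16, -0.25 and -1.50. The call did not survive the mouse as a block (adjusted p = 0.0537 in edgeR), the use of all genes without a filter on low counts (0.0624) or leaving out any of the 4 replicate numbers (0.0702 to 0.310). For the other 9 genes, no change of the difference over the weeks was shown.

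Part of the genes changed over time within each kind of skin. In control skin 4 of the 10 genes changed over the 4 weeks, beside 23.9% of all genes: Adipoq, Plin1, Lipe and Retn (adjusted p = 0.00805, 0.0113, 0.0355 and 0.00550 in edgeR). Retn in control skin had 25.8 ± 6.6, 18.3 ± 3.3, 9.13 ± 1.94 and 21.9 ± 9.0 CPM from week 1 to week 4 (SD, n = 4 each). Adipoq followed the same course, at 149 ± 49, 88.0 ± 21.9, 40.5 ± 7.6 and 82.5 ± 43.7 CPM. The lowest mean of both genes in control skin was thus that of week 3. In the same test 4 of 7 skeletal muscle, 4 of 7 macrophage and 5 of 6 fibroblast markers passed, as did none of the 7 endothelial and 6 growing hair follicle markers. The muscle markers summed to 28894, 33215, 23907 and 9438 CPM on average from week 1 to week 4, and their part and that of the other cells was not tested.

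In radiated skin 4 of the 10 genes changed over the weeks, beside 23.3% of all genes: Adipoq, Lep, Plin1 and Retn (adjusted p = 0.0118, 0.0196, 0.0369 and 0.00951 in edgeR). Retn in radiated skin stood at 14.9 ± 4.6, 16.4 ± 3.8, 7.54 ± 2.05 and 7.70 ± 2.09 CPM from week 1 to week 4 (SD, n = 4 each). The week 4 value was close to that of week 3, whereas in control skin it stood above it. Lep in radiated skin was highest in week 2, at 58.7 ± 11.2 CPM, and lowest in week 3, at 26.3 ± 6.8 CPM. Plin1 followed with 201 ± 67 and 86.3 ± 16.4 CPM in the same weeks. In that test 7 of 7 skeletal muscle, 6 of 7 endothelial, 3 of 7 macrophage, 5 of 6 fibroblast and 3 of 6 growing hair follicle markers passed as well. The muscle markers summed to 11456, 13513, 4367 and 1531 CPM on average from week 1 to week 4, and the part of these cells in the changes over the weeks was not tested. Cidec, Fabp4, Cd36, Pparg and Pnpla2 passed in neither kind of skin. Leaving out replicate number 2 or 4 left no call in control skin, and leaving out number 3 left none in radiated skin.

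Control skin was set against sham skin week by week, and the most genes differed in week 1. There, 5 of the 10 genes were higher in control than in sham skin, beside 4.92% of all genes passing and 3.28% passing with higher values. These were Cidec (4.05-fold), Adipoq (3.797-fold), Retn (3.62-fold), Plin1 (3.13-fold) and Pnpla2 (2.47-fold), with adjusted p between 0.0234 and 0.0387 in edgeR. Adipoq had 33.9, 56.7 and 25.9 CPM in sham skin and 98.8, 124, 213 and 159 CPM in control skin of week 1. Of the 10 genes, 6 had groups that did not overlap, the 5 that passed and Cd36, beside 23.4% of all genes. In week 2 Retn (2.57-fold) and Pnpla2 (1.80-fold) were higher, 2 of the 10, beside 2.44% of all genes passing and 1.37% with higher values. Both of these calls were lost without sham 2 or 3 or control 2, 3 or 4 (adjusted p between 0.0993 and 0.126 in edgeR). In week 3 none passed in edgeR, beside 11.4% of all genes, while 2 had an unadjusted p under 0.05, as did 5311 of all genes, and DESeq2 called 1, as it did 3594 of all genes. In week 4 Retn was higher (3.08-fold, adjusted p = 0.0447 in edgeR), 1 of the 10, beside 3.65% of all genes passing and 1.76% with higher values.

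The 3 sham samples are shared by all of these comparisons, so the weeks are not independent of each other. Dropping single libraries ended the calls often: leaving out 1 library left none of the 5 calls of week 1 in 5 of 7 cases, and none of the week 4 call in 7 of 7. The number of all genes that passed varied as well with 1 library left out. It ran from 0 to 1803 in week 1, from 0 to 2199 in week 2 and from 0 to 1705 in week 4. The libraries whose loss left none of the 5 calls were sham 2 and 3 and control 2, 3 and 4. Markers of other tissues were read in the same comparisons. The 6 markers of growing hair follicles, all below 0 in week 1 but none passing, overlapped in their sums, which came to between 2085 and 33428 CPM in sham skin and to between 17.7 and 6685 CPM in control skin of week 1. In week 4 all 6 of them were lower in control skin and passed, with a median log2 fold change of -11.19 and sums of 20.8 to 32.5 CPM. Of 7 skeletal muscle markers 5 were higher and passed in week 1, and 5 in week 2 (median 1.64 and 1.85). They summed to between 6110 and 13082 CPM in sham skin, to between 23310 and 36869 CPM in control skin of week 1 and to between 25366 and 45468 CPM in that of week 2. All 7 endothelial markers were above 0 in week 1, 3 of them passing, with a median log2 fold change of 0.82. They summed to between 97.2 and 157 CPM in sham skin and to between 205 and 276 CPM in control skin, without overlap. Fibroblast markers were above 0 in week 1 as well, 2 of 6 passing. The part of the hair cycle, muscle, endothelium and fibroblasts in these differences was not tested.

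Radiated skin was set against the same 3 sham samples, and whether it lay nearer to sham skin than control skin did was not tested. The median log2 fold changes of the 10 genes from week 1 to week 4 were 0.49, 0.86, -0.04 and 0.20 for radiated skin and 1.48, 0.90, 0.20 and 0.90 for control skin. In week 1 none of the 10 genes passed in edgeR, beside 1.75% of all genes, with 2 at an unadjusted p under 0.05, as were 3021 of all genes, and 2 called by DESeq2, as were 1238 of all genes. In week 2 Retn was higher in radiated skin (16.4 ± 3.8 against 7.06 ± 1.99 CPM, SD, n = 4 and 3), at 2.33-fold and an adjusted p of 0.0432 in edgeR. That was 1 of the 10 genes, beside 5.06% of all genes passing and 2.16% with higher values. Scaling by total counts, which moved the median of all genes by -0.13 on the log2 scale, ended that call (adjusted p = 0.0522 in edgeR), as did leaving out sham 1, 2 or 3 or radiated 2 or 3 (0.0755 to 0.174). All 6 growing hair follicle markers were lower than in sham skin in that comparison, with a median log2 fold change of -10.32 and sums of 12.8 to 39.6 against 2085 to 33428 CPM, and their part in the Retn difference was not tested. In week 3 none passed in edgeR, beside 18.2% of all genes, none had an unadjusted p under 0.05, as did 6144 of all genes, and DESeq2 called none, beside 4861 of all genes. In week 4 none passed in edgeR, beside 26.7% of all genes, while 6 of 7 skeletal muscle markers were lower and 5 of 6 fibroblast, 7 of 7 endothelial and 7 of 7 macrophage markers higher than in sham skin. Of the 10 genes, 1 had an unadjusted p under 0.05, as did 7183 of all genes, and DESeq2 called 1, as it did 6001 of all genes.

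At week 4 the Retn value thus depended on the group radiated skin was set against. Radiated skin had 7.70 ± 2.09 CPM, sham skin 7.06 ± 1.99 CPM and control skin 21.9 ± 9.0 CPM. Against sham skin the log2 fold change was 0.17 with an interval of -0.39 to 0.72 (2 SE either side). Pnpla2 had the same order, at 104 ± 21 CPM in radiated, 99.97 ± 15.87 CPM in sham and 187 ± 54 CPM in control skin (SD, n = 4, 3 and 4). Its log2 fold change against sham skin was 0.10, with an interval of -0.28 to 0.47.

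Because the genes moved together, each was also set against Adipoq in the same library, as the difference of log2 CPM, which does not depend on the scaling. Radiated and control skin were compared in this way for 9 genes in 4 weeks, as a description without a test. The groups did not overlap for 4, 1, 2 and 2 of the 9 genes in weeks 1 to 4, beside 65.8%, 4.52%, 39.3% and 17.5% of all genes set against Adipoq in the same way, so these counts were not above the background in weeks 1 and 3 and were near it in week 4. All of these values share Adipoq, which was itself lower in radiated skin in each week, with log2 fold changes of -1.30, -0.34, -0.67 and -0.93 from week 1 to week 4. Lep relative to Adipoq at week 4 had a mean of -0.03 in radiated and -1.29 in control skin, a difference of 1.26, and the groups did not overlap. Retn relative to Adipoq moved the other way, with means of -2.47 and -1.82 and a difference of -0.65, again without overlap. In that week the fitted log2 fold changes of the genes themselves were 0.22 for Lep and -1.50 for Retn. The higher Lep ratio thus came with a lower Adipoq and a higher Lep value, and the sign of the Lep difference rested on control sample 3. Lipe relative to Adipoq was higher in radiated skin by 1.00 in week 1 and by 1.00 in week 3, in both weeks without overlap. The other comparisons without overlap were Plin1 in weeks 1 and 2 (0.35 and 0.45), Pnpla2 in week 1 (0.59) and Pparg in weeks 1 and 3 (0.64 and 0.86). Cd36 and Fabp4 kept nearly the same relation to Adipoq in week 1, with differences of -0.00 and 0.05.

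**Figure D3:**
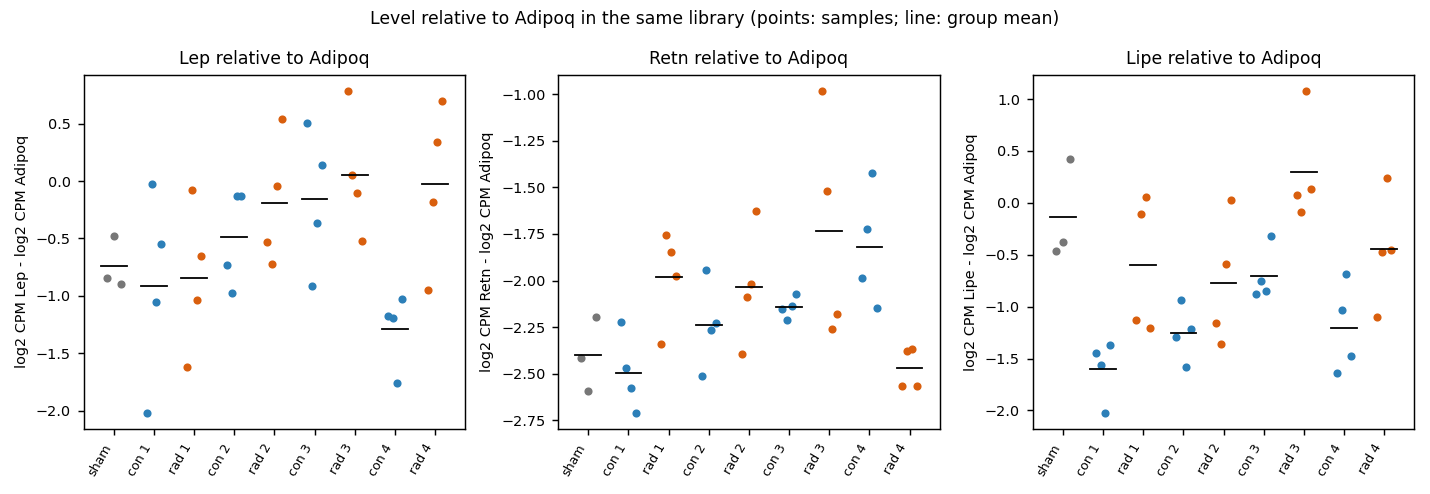
Level of Lep, Retn and Lipe relative to Adipoq in the same library (difference of log2 CPM), by group, with points for samples and a line at the mean; con and rad are control and radiated skin and the digit is the week. In week 4 all Lep points of radiated skin lie above and all Retn points below those of control skin.

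Other genes of fat cell metabolism were read from lists, each against control skin of the same week, where 27.2% of all genes passed in week 3 and 48.4% in week 4. In weeks 1 and 2 no listed gene of these lists passed. In fatty acid synthesis and triglyceride assembly most genes were lower in week 4: of 15 genes 12 passed, 11 lower and 1 higher, with a median log2 fold change of -1.19 beside 0.02 for all genes. The lower genes included Thrsp, a regulator of fat synthesis, at 2.49 ± 2.07 against 43.8 ± 24.6 CPM (SD, n = 4 each, log2 fold change -4.11). Pck1, which makes glycerol precursors, had a log2 fold change of -2.29, malic enzyme (Me1), a source of NADPH, one of -1.76, and Dgat2, which completes triglycerides, one of -1.61. Dgat1, the other enzyme of that last step, was the single gene that rose, at 29.3 ± 7.9 against 14.0 ± 5.0 CPM in week 4, and was named after its values were seen. In week 3, 7 of the 15 passed, 6 lower and 1 higher. Dgat1 rose there by 2.34, and Thrsp, Me1 and Gpd1 had log2 fold changes of -2.10, -1.48 and -1.39. Sebaceous glands also make lipid, and of their 7 markers 6 were tested in week 4, of which 3 passed, all lower, with all 6 below 0 and a median of -0.60. Their sums ran from 74.3 to 230 CPM in radiated and from 113 to 354 CPM in control skin, and their part in the differences of this list was not tested.

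Uptake and insulin response genes passed only with lower values in these 2 weeks. Of 5 uptake genes 3 fell in week 4, led by the acyl-CoA synthetase Acsl1 (-1.23), the transporter Slc27a1 (-0.74) and the glycerol channel Aqp7 (-0.68, all log2 fold changes). In week 3, 2 fell, Acsl1 (-1.02) and lipoprotein lipase (Lpl, -0.99). Of 5 insulin response genes 4 fell in week 4. They were the receptor substrate Irs1 at 42.4 ± 8.9 against 135 ± 12 CPM (SD, n = 4 each, log2 fold change -1.67), the insulin-regulated glucose transporter Slc2a4 (-1.15), the kinase subunit Pik3r1 (-0.98) and the receptor Insr (-0.28). The Insr call was lost with total-count scaling (adjusted p = 0.0971 in edgeR) and without control 1 or 4 (0.0505 and 0.0641). In week 3, 3 of the 5 fell, with Irs1 at -1.53, Slc2a4 at -1.27 and Pik3r1 at -0.64, and the Pik3r1 call was lost with total-count scaling (adjusted p = 0.0512 in edgeR). Slc2a4 is also abundant in muscle, whose 7 markers summed to between 978 and 2260 CPM in radiated and between 1184 and 18037 CPM in control skin of week 4. In week 3 the sums of the same markers did not overlap, at 2568 to 7588 CPM in radiated and 14946 to 30250 CPM in control skin. The part of muscle in the differences of Slc2a4 and the other uptake and insulin response genes was not tested.

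Other genes listed as adipokines or fat cell products, not all of which encode secreted proteins, went both ways. Of 8 listed, 6 passed in week 4, 4 lower and 2 higher. Adipsin (Cfd), a complement factor made by fat cells, had 31.8 ± 12.6 against 87.0 ± 31.2 CPM (SD, n = 4 each, log2 fold change -1.45), and the retinol carrier Rbp4 had a log2 fold change of -1.97. The Rbp4 call was lost without control 1 or radiated 1, 3 or 4 (adjusted p between 0.0541 and 0.0584 in edgeR). Apelin (Apln) rose from 2.27 ± 0.82 to 42.0 ± 6.7 CPM and Angptl4, an inhibitor of lipoprotein lipase, rose with a log2 fold change of 1.89. In week 3, 3 passed: Apln (4.27) and Angptl4 (2.33) rose and Itih5 (-1.31) fell. Apelin is also made by endothelial cells, and the 7 endothelial markers summed to 438 ± 56 CPM in radiated and 212 ± 49 CPM in control skin of week 4 (SD, n = 4 each; ranges 383 to 513 and 165 to 271 CPM). The part of endothelium in the Apln difference was not tested.

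Droplet, lipolysis and transcription genes were split as well. Of 8 droplet and caveola genes 3 passed in week 4: Cidea (-1.22) and Fitm2 (-0.71) fell, and perilipin 2 (Plin2), which coats droplets in many cell types, rose (0.90, log2 fold changes). In week 3 Plin2 (1.12) and seipin (Bscl2, 0.74) rose and Fitm2 (-0.91) fell, 3 of the 8, and 5 passed without radiated 1 and with DESeq2. Bscl2 did not pass without control 1 or 2 (adjusted p = 0.0625 and 0.0583 in edgeR). Of 6 lipolysis genes 3 passed in week 4: the receptors Acvr1c (-1.93) and Adrb3 (-1.13) fell, and G0s2, an inhibitor of the Pnpla2 lipase, rose (0.67). In 1 fit of all 35 samples neither G0s2 nor Cidea passed in week 4 (adjusted p = 0.327 and 0.140 in edgeR). In week 3 G0s2 rose by 2.40 and Acvr1c had a log2 fold change of -1.81, 2 of the 6. Of 9 transcription genes 6 passed in week 4, 5 lower, among them Klf15 (-2.37), Rxra (-0.81) and Cebpa (-0.76), and 1 higher, Cebpb (1.195). In week 3, 5 of the 9 passed, with Klf15 (-1.38) and Ebf2 (-1.30) lower and Nr1h3 (1.32) and Cebpb (1.03) higher, but with the mouse as a block the count was 2 and Nr1h3, Ebf2 and Cebpb did not pass (adjusted p = 0.0957, 0.0957 and 0.0767 in edgeR). Of the 14 alternative settings, 8 ended the Nr1h3 call, 7 that of Ebf2 and 5 that of Cebpb. Leaving out single libraries of week 3 also lowered the count, to 2 without control 2, 3 or 4 and to 3 without control 1, radiated 2 or radiated 3. Macrophages also express Plin2, Nr1h3 and Cebpb, and the 7 macrophage markers summed to between 907 and 2273 CPM in radiated and between 306 and 924 CPM in control skin of week 3. In week 4 the sums ran from 1082 to 1452 CPM in radiated and from 162 to 278 CPM in control skin. The part of macrophages in the rises was not tested.

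**Figure D4:**
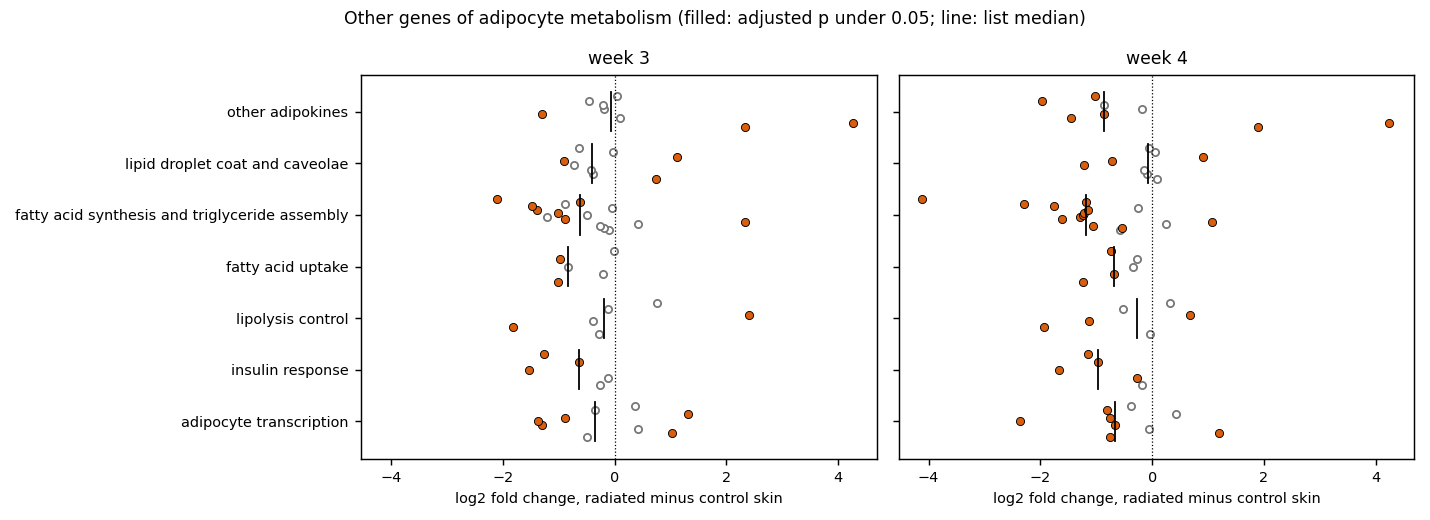
Log2 fold change of radiated against control skin for the genes of 7 lists in weeks 3 and 4 (points for genes, filled for an adjusted p under 0.05, line at the list median). In week 4 the fatty acid synthesis list has 11 filled points below 0 and 1 above, and the list of other adipokines has 4 below and 2 above.

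The droplet coat gene Plin1 and Fabp4, both standard fat cell markers, had lower means in week 4 but did not pass. Plin1 had 136 ± 20 CPM in radiated samples and 193 ± 81 CPM in control samples of week 4 (SD, n = 4 each), with an interval of -1.06 to 0.06 on the log2 scale. Fabp4 had 125 ± 13 and 163 ± 94 CPM and an interval of -1.13 to 0.37. These intervals include a fall of the size seen for Pnpla2 as well as no change, and without control 3 Plin1 passed, as given above.

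**Figure D5:**
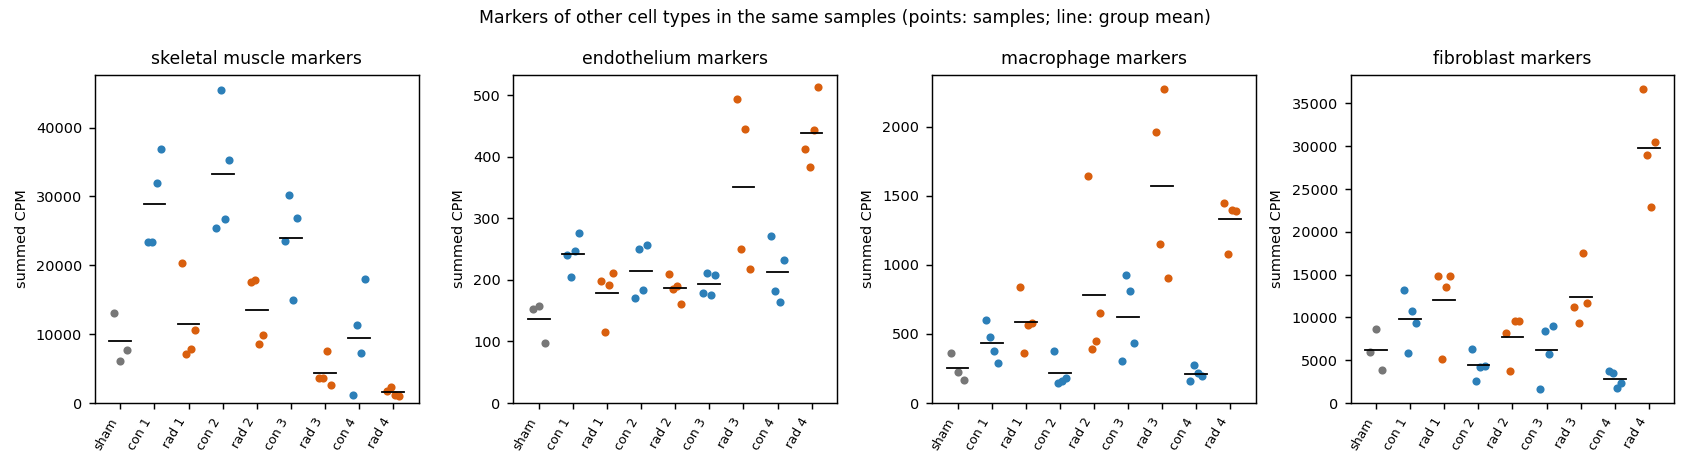
Summed level (CPM, linear axes from 0) of 7 skeletal muscle, 7 endothelial, 7 macrophage and 6 fibroblast markers in every sample, by group, with points for samples and a line at the mean; con and rad are control and radiated skin and the digit is the week. In week 4 the macrophage sums of radiated skin lie between 1082 and 1452 CPM and those of control skin between 162 and 278 CPM.

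In the plot of markers of other cells the fibroblast and macrophage sums of radiated and control skin do not overlap in week 4, and there too numbers of cells and RNA per cell cannot be told apart. Fibroblast markers summed to 29756 ± 5659 CPM in radiated and 2841 ± 950 CPM in control skin of week 4 (SD, n = 4 each; ranges 22851 to 36631 and 1754 to 3721 CPM). A gene at a steady amount in the tissue makes up a smaller share of a library when others rise, and the part of this in the week 4 values was not tested. Across the 35 samples the mean standardised level of the 10 genes had a Spearman correlation of 0.46 with the muscle list, 0.19 with the endothelial list and -0.32 with the macrophage list. The same measure was 0.86 for the uptake list and 0.83 for the list of other adipokines. It was 0.64 for the droplet list, 0.62 for insulin response, 0.61 for fatty acid synthesis, 0.50 for lipolysis, 0.43 for transcription, 0.11 for brown and beige fat and -0.05 for progenitors. Samples share groups and scaling, so these are descriptions.

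The genes whose level followed the 10 most closely were sought among 12523 genes averaging 5 CPM or more, by Spearman correlation over the 35 samples with the mean standardised log2 CPM of the 10. Aoc3, a surface amine oxidase, came first at 0.950, followed by Klhdc7a at 0.934, the kinase subunit Prkar2b at 0.893, the peroxisomal transporter Abcd2 at 0.889 and Lpl at 0.881. Cdo1 (0.877), Pcx (0.867), Cfd (0.857), Ephx2 (0.842) and Thrsp (0.837) completed the first 10. The median over all these genes was 0.05, and 16 genes exceeded 0.8. Aoc3 had its highest group mean in control skin of week 1, at 91.1 CPM, and its lowest in radiated skin of week 3, at 25.2 CPM, as Adipoq did.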

How the data were processed

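The labels' protocols state total RNA from skin biopsies, sequenced by a commercial provider, and analysis with Kallisto and DESeq2. Per the submitters' processing notes, Trim Galore 0.6.7, kallisto 0.46.2 and the build mm10 were used. The transcriptome release, strand setting and step from transcripts to genes are not given in the sources used here. The authors deposited estimated counts per gene, not scaled between samples, and between 29.5% and 32.5% of a sample's values were not whole numbers. They were rounded to whole numbers.

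Genes were filtered with filterByExpr, libraries scaled with TMM (factors 0.816 to 1.16), and differences tested with the quasi-likelihood F test of edgeR 4.0.16 in R 4.3.3, with Benjamini-Hochberg adjustment over all genes tested. Each comparison of 2 groups was fitted on its own samples. Changes over weeks were fitted on all weeks. CPM were computed on scaled libraries and log2 CPM with a prior count of 2. The standard error is the log2 fold change divided by the square root of F. Precision is limited by 17362853 to 28487885 counts per sample and by 3 or 4 samples a group. The fits were tested on simulated data. Alternatives were DESeq2 1.42.0, DESeq2 size factors in edgeR, total-count scaling, no low-count filter, the replicate number as a block, 1 fit of all 35 samples, and leaving out each library.

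The block was used because radiated and control samples of a number were taken to come from 1 mouse, which rests on 16 mice remaining for 32 samples. The mean correlation of deviations of samples with the same number was 0.07, 0.17, 0.05 and -0.02 in weeks 1 to 4. Nothing else says that replicates were prepared separately beyond the mice. The members and lists were chosen with earlier results of these data known. The rule for named genes was all 10 members and, in each other list, up to 4 genes with the largest log2 fold change among those passing that week. All 10 are given for radiated against control skin, and in the other comparisons those that did not pass are mostly given by count. Gene overlaps and transcript lengths come from GENCODE M21 on GRCm38.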

Additional observations from a re-analysis of the deposited data

Results flagged for a closer look

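In 80 sets of 4 samples (10 genes in 8 groups), 4 held a sample whose gap to the nearest of the others exceeded Dixon's 95% limit, and chance flags about 1 in 20. Adipoq had 35.2 CPM in radiated skin of week 2, sample 4, beside 77.1 to 83.9 CPM in the other 3. Fabp4 had 142.6 CPM in radiated skin of week 3, sample 1, beside 80.3 to 84.3 CPM. Lipe had 63.0 CPM in radiated skin of week 1, sample 3, beside 28.7 to 33.8 CPM. Lipe also had 64.3 CPM in radiated skin of week 3, sample 3, beside 20.5 to 27.3 CPM. Those 2 samples come from different mice, and the span of an antisense gene overlaps that of Lipe.

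For Retn the test of the change itself found that radiated and control skin differed unequally over the weeks, with an adjusted p of 0.0495 in edgeR. In that test 1 of the 10 genes passed, beside 15.6% of all genes. The call was lost with the mouse as a block (adjusted p = 0.0537 in edgeR), without the filter on low counts (0.0624) and on leaving out any replicate number (0.0702 to 0.310).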

How the results depend on the processing

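Retn and Pnpla2 in week 4 kept their direction and call under every alternative tried for radiated against control skin. Counts of the 10 genes that passed changed as follows. With DESeq2 they were 4 in week 1 for radiated against control skin. For radiated against sham skin they were 2, 4 and 1 in weeks 1, 2 and 4, and for control against sham skin 8, 7, 1 and 3 in weeks 1 to 4. Of all genes, DESeq2 called 423 in the first of these comparisons. It called 1238, 2482 and 6001 for radiated against sham skin and 2974, 1956, 3594 and 1855 for control against sham skin, in the same order. Total-count scaling gave 0 in week 3 for radiated against control skin, 0 in week 2 for radiated against sham skin and 1 in week 2 for control against sham skin. Without the filter on low counts the week 2 count for control against sham skin was 4 and that of the change over weeks was 0. In 1 fit of all 35 samples the week 3 count for radiated against control skin was 1, and for radiated against sham skin weeks 1 and 2 gave 1 and 3. With the replicate block, the counts for control against sham skin were 0, 0 and 0 in weeks 1, 2 and 4, that for radiated against sham skin in week 2 was 3 and that of the change over weeks was 0. Sham and other samples of a number are different mice, so that pairing shares only a number. For radiated against control skin the block changed no other call of the 10 genes than Adipoq in week 4. Single libraries left out gave, for radiated against control skin, 0 to 2, 0 to 0, 0 to 2 and 2 to 5 in weeks 1 to 4. Of all genes, these fits called 0 to 232, 0 to 206, 3209 to 5071 and 7548 to 8582. For the 10 genes the same range was 0 to 1, 0 to 3, 0 to 0 and 0 to 2 for radiated against sham skin and 0 to 6, 0 to 3, 0 to 0 and 0 to 0 for control against sham skin. Over all genes it was 1 to 543, 107 to 1398, 1134 to 3965 and 3467 to 4590 for radiated against sham skin. It was 0 to 1803, 0 to 2199, 629 to 2438 and 0 to 1705 over all genes for control against sham skin. With a replicate number left out, the range for the 10 genes was 0 to 0 for the change over weeks, 0 to 6 for control skin and 0 to 4 for radiated skin over weeks. Over all genes it was 960 to 1782, 1231 to 4503 and 2040 to 3272. The causes were not tested.

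Some differences of radiated against control skin that were not called changed sign (log2 fold changes). Over the settings that leave out 1 library, the week 2 ranges were -0.45 to 0.071 for Lep, -0.074 to 0.31 for Plin1, -0.31 to 0.24 for Cidec, -0.35 to 0.013 for Pparg, -0.040 to 0.20 for Lipe and -0.11 to 0.16 for Pnpla2. Pnpla2 was 0.055 in that week with total-count scaling and 0.0014 in the fit of all samples. The week 3 ranges were -0.30 to 0.15 for Fabp4, -0.070 to 0.64 for Lipe and -0.27 to 0.17 for Pnpla2. In that week Fabp4 was 0.19 with total-count scaling, and Pnpla2 was -0.0083 with DESeq2 and with its size factors, -0.042 with the replicate block and -0.022 in the fit of all samples. The week 4 ranges were -0.095 to 0.59 for Lep and -0.23 to 0.13 for Lipe, and Lipe was 0.029 with total-count scaling. Total-count scaling moved the median of all genes by 0.14 in week 1 for radiated against control skin and by -0.15, -0.18 and -0.17 in weeks 1 to 3 for control against sham skin.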

Other observations

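Genes of the cells that give rise to fat cells were mostly higher in radiated skin in week 4. Of 8 listed progenitor genes 7 passed, 5 higher and 2 lower, beside 48.4% of all genes passing, with Pdgfra at 448 ± 78 CPM beside 108 ± 9 CPM in control samples (SD, n = 4 each, log2 fold change 2.06), Pdgfrb at a log2 fold change of 1.95 and Pi16 at 1.17. Dpp4, of the same list, fell, at 17.9 ± 3.4 against 34.0 ± 12.7 CPM and a log2 fold change of -0.92. In week 3, 4 of the 8 passed, beside 27.2% of all genes: Pdgfrb (1.52) and Pdgfra (1.17) rose, and Dpp4 (-1.31) and Cd34 (-1.29) fell. The Dpp4 call of week 3 was lost in 7 of 14 alternative settings: with the mouse as a block (adjusted p = 0.117 in edgeR), with total-count scaling (0.0668) and without control 2 or 3 or radiated 1, 2 or 3 (0.0635 to 0.0923). That of week 4 was lost in 1 fit of all 35 samples (0.0837) and without control 2 (0.0531). Pdgfra is shared with dermal fibroblasts and Pdgfrb with vessel mural cells, and the part of these cells was not tested.

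Of the 6 brown and beige fat genes, Ucp1, which defines thermogenic fat, was at 0 in 30 of the 35 samples and reached at most 0.28 CPM. Dio2, which activates thyroid hormone, rose in radiated skin of week 4 to 68.5 ± 31.3 CPM from 7.0 ± 2.1 CPM in control samples (SD, n = 4 each, log2 fold change 3.31), and Ppargc1a fell (-0.71). In week 3 Cox7a1 (-1.54) and Cox8b (-1.25), which muscle also expresses, fell. The Cox8b call was lost in 8 of 14 alternative settings: with total-count scaling (adjusted p = 0.0525 in edgeR), in 1 fit of all 35 samples (0.0536) and without any control library or radiated 1 or 2 (0.0553 to 0.0885). The Ppargc1a call of week 4 was lost in 1 fit of all 35 samples (0.0836) and without control 4 (0.0641). Only 5 of the 6 were tested, so that 2 of 5 passed in each of these weeks, beside 27.2% of all genes in week 3 and 48.4% in week 4. The count of week 3 went down to 1 on leaving out any control library or radiated 2, and in week 4 it went from 2 to 4 without control 1 and to 1 without control 4.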
